A study of Mus musculus with 24 samples.

Results

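The genes described here are 100 mouse genes with a higher array signal after nanosecond pulsed electric field (nsPEF) exposure than after sham exposure at 0, 4 and 24 h. They were chosen from 11375 probes of 9002 genes that were well above background on all 24 arrays, carried no outlier mark, lay in rows 97 to 336 of the array and could be paired with a RefSeq gene symbol. The value was the log2 processed signal minus the 75th percentile of its array. Of these probes, 831 (7.31%) had a group mean above that of sham at each of the 3 times, and they belonged to 817 genes. The 100 genes with the largest average of the 3 differences were kept, each by its best probe, which is 12.2% of the 817 genes and a small share of the 23787 genes with a named probe. The nsPEF minus sham differences of these genes therefore made the list, and they are given as a description without a test.

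The cells were TM3, an established mouse line of Leydig cells, the testosterone-producing cells between the seminiferous tubules. In the sham groups, suspended cells went through the same preparation in cuvettes without pulses. In the nsPEF groups they received 80 pulses of 60 ns at 14 kV/cm. Each treatment was sampled at 0, 4 and 24 h with 4 biological replicates, which gives 6 groups. All groups share the single cell line, its medium with horse and fetal bovine serum, and the preparation in suspension before treatment. The handling before harvest differed with time. The paper describes a prolonged preparation just before the 0 h samples and a quick harvest of the cells at 4 h and 24 h.

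Nanosecond pulses are short enough to act on internal membranes as well as on the plasma membrane. They open small pores through which ions pass, calcium enters the cytoplasm, and cells swell until the membrane reseals. Genes usually followed after such a stress are those of membrane repair, calcium handling, the stress-activated kinases and the stress responses, whereas Leydig cells are known for cholesterol uptake and steroid synthesis.

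The promoters of 4 of the genes are shown because Gpat3 and Klra1 led the list, Igfbp2 regulates growth factors, and Uncx carried TGACGTCA, which few promoters hold. The sequences are those of RefSeq on GRCm38.p6, 300 bases around the start of the gene with 50 of them after it, written 5′ to 3′ on the strand of the gene. Capitals mark the letters that were searched on both strands, which were TATAAA (the box bound by the TATA-binding protein), CCAAT (the box of nuclear factor Y), GGGCGG (the box of Sp1), TGACGTCA (the cyclic AMP response element), TGAGTCA (the element of Fos and Jun), CACGTG (the E-box) and GGAAGTG (an element of Ets factors). Gpat3 lies at chr5:100845979-100846278 (plus strand), Klra1 at chr6:130386825-130387124 (minus strand), Igfbp2 at chr1:72824230-72824529 (plus strand) and Uncx at chr5:139543648-139543947 (plus strand).
Gpat3: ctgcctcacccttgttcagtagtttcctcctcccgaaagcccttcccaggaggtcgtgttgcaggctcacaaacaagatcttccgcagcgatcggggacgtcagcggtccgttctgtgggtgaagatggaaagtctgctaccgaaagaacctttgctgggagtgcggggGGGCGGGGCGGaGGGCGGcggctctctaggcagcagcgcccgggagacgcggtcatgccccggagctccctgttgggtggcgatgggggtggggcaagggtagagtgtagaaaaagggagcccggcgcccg
Klra1: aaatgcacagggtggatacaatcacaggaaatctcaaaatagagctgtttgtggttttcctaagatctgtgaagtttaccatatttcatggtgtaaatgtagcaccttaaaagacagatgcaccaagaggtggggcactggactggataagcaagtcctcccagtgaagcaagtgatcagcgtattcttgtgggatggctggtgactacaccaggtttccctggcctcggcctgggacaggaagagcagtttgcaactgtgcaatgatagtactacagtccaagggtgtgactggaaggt
Igfbp2: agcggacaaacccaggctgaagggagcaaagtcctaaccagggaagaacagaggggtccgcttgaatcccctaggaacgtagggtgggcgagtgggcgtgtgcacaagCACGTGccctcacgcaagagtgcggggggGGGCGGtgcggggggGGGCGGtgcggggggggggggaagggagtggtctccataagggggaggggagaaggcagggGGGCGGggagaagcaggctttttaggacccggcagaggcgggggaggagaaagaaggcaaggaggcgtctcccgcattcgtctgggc
Uncx: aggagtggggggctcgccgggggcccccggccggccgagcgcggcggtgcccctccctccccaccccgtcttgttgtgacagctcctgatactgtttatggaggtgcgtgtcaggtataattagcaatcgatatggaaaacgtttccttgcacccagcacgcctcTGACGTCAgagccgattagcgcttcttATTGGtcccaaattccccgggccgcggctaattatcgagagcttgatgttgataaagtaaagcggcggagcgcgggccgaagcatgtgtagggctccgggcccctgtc

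A promoter was found for 77 of the 100 genes. GGGCGG was held by 39.0% of the 77, by 53.6% of the promoters of the 1681 dimly read genes that could have been chosen, and by 35.9% of all 27025 promoters. The median GC content was 55.7% for the 77, 58.7% for the dimly read genes and 52.7% for all promoters. TGACGTCA stood in 4 of the 77 (5.19%), against 2.97% for the dimly read genes and 1.88% for all promoters, and TATAAA in 4 (5.19%), against 8.51% and 14.2%. CCAAT was held by 36.4% of the 77, by 36.0% for the dimly read genes and by 37.9% of all promoters. CACGTG was held by 6.49% against 7.91% and 7.24%, GGAAGTG by 9.09% against 12.7% and 11.2%, and TGAGTCA by 1.30% against 3.99% and 5.17%. Klra1 held none of these letters in its window. These shares describe sequence letters and not binding.

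Arrays of 1 time point shared a slide, with the sham arrays in its first row and the nsPEF arrays in its second. Time, slide and the handling before harvest cannot be told apart, nor can treatment and place on the slide. The negative control spots, which match no mouse transcript, read between -8.06 and -7.46 on the sham arrays and between -7.44 and -6.48 on the nsPEF arrays on the same log2 scale. The 51.2 to 57.2% of probes well above background on the nsPEF arrays lay below the 57.5 to 62.1% of the sham arrays. Of the 11 measured genes listed for Leydig cells, 5 (Cyp17a1, Star, Nr5a1, Gata4 and Insl6) were well above background on all 24 arrays. Cyp11a1, Hsd3b6, Hsd17b3 and Lhcgr were so on none, and Insl3 of the same list had no probe. Whether each listed gene is specific to Leydig cells was not tested, so the count does not settle the identity of the cells. On all 24 arrays were also 7 of 8 fibroblast and peritubular genes, among them Col1a1, Dcn and Pdgfra, 3 of 6 Sertoli cell genes, among them Wt1 and Sox9, 3 of 6 macrophage genes (Cd68, Csf1r and Cd14), 1 of 6 germ cell genes and 1 of 5 endothelial genes. The macrophage markers Adgre1 and Ptprc reached this mark on 1 array each, and the endothelial markers Tie1, Cdh5 and Tek on none.

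The median difference between nsPEF and sham over the 100 genes was 0.22 on the log2 scale at 0 h, 0.60 at 4 h and 0.44 at 24 h. Over all 11375 probes that could have been chosen it was -0.04, -0.05 and -0.02, and 3520 of these probes (30.9%) were lower at all 3 times. The averages of the 3 differences ran from 0.33 to 0.95 with a median of 0.42. For 58 genes the difference was largest at 4 h, for 35 at 24 h and for 7 at 0 h. At 0 h the mean of the 100 genes was -3.37 ± 0.09 (SD, n = 4 arrays) on the sham arrays and -3.10 ± 0.15 on the nsPEF arrays. It was -3.41 ± 0.04 and -2.81 ± 0.15 at 4 h, and -3.30 ± 0.10 and -2.78 ± 0.13 at 24 h. In RNA of a whole culture, the share of cells that express a gene and the amount of its RNA per cell cannot be told apart. The nsPEF arrays lay above the sham arrays of their time at each time point, and at 0 h the gap between the highest sham and the lowest nsPEF array was small, at -3.26 and -3.25.

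**Figure D1:**
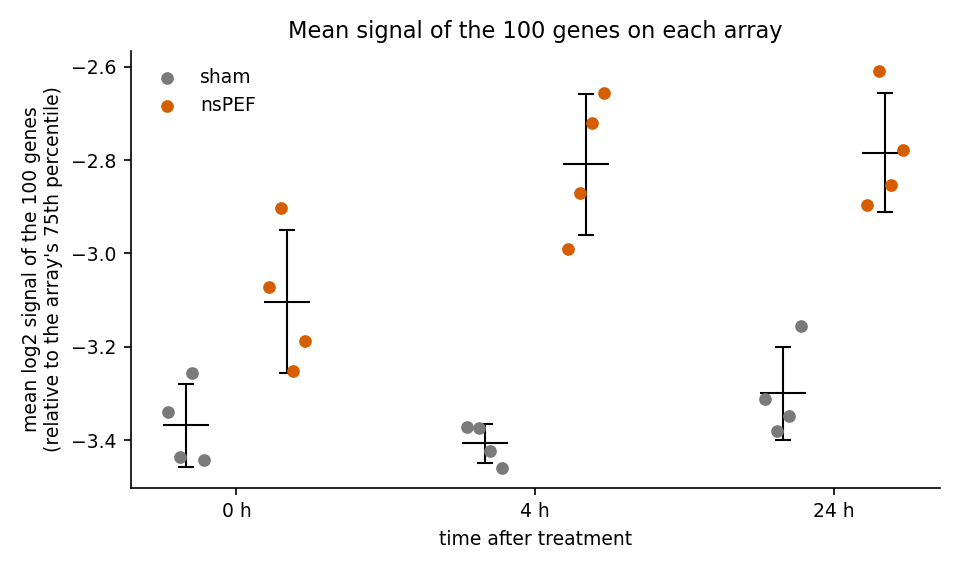
Mean log2 signal of the 100 genes (vertical axis, after subtraction of the array's 75th percentile) on each of the 24 arrays, by time, with sham in grey and nsPEF in orange; the black bars are group means with SD of 4 arrays. The nsPEF arrays sit above the sham arrays at each time, from -3.25 to -2.90 at 0 h, from -2.99 to -2.66 at 4 h and from -2.90 to -2.61 at 24 h, as the choice of the genes requires of their means.

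Single genes varied more than this mean. All 4 nsPEF arrays were above all 4 sham arrays for 11 of the genes at 0 h, 35 at 4 h and 35 at 24 h, where 4.45%, 7.15% and 6.05% of all 37684 tested probes showed this. Since the rule used the same contrast, nothing is read from these counts. The groups separated at no time for 38 genes, at 1 time for 44, at 2 times for 17 and at 3 times for Klra1 alone. Of the 11375 probes that could have been chosen, the same numbers were 10571, 750, 53 and 1. The rule used this contrast too, so nothing is read from these numbers. The median SD between replicates was 0.21 on sham and 0.30 on nsPEF arrays, against 0.09 and 0.09 over all probes that could have been chosen and 0.15 and 0.17 over the dim ones among them. Without 1 of the 24 arrays, the average difference was smaller by a factor of over 1.5 for 16 of the 100 genes, and these are named below with their groups. The highest of the 24 values lay on an nsPEF array for 97 of the genes, where it did for 36.7% of all probes that could have been chosen. It lay most often on replicate 4 at 4 h (21 genes, against 4.81% of those probes) and replicate 2 at 24 h (18 genes, against 4.19%). The lowest value lay on a sham array for 93, most often on replicate 4 at 4 h (25 genes). The rule favours this order, so nothing is read from these counts either.

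Although well above background on every array, the spots of these genes were dim. Their median signal was -3.45 against 0.45 for all probes that could have been chosen, and 91 of 100 lay below -2, where 19.9% of all those probes did. A spot's brightness depends on its probe, so it is a property of the measurement here and not a level of one gene against another. Only Shc4, Herc2 and Ermn lay above 0. The genes were thus well detected by the mark of the scanner software and not by brightness. Spots well above background on no sham array, within 6 rows and 6 columns of the 100 spots, had a median nsPEF minus sham difference of 0.54 at 0 h, 0.97 at 4 h and 0.79 at 24 h. Around all probes that could have been chosen the same medians were 0.54, 0.96 and 0.78. These surrounding spots were chosen by their sham arrays alone, which favours a difference above 0. Averaged over the times, the spots around 64 of the 100 genes lay above the median of 0.75 around all those probes. Around the 41 genes in the first 48 of the allowed rows the median was 0.99, against 0.90 around all probes of those rows, and around the other 59 it was 0.73, against 0.74. Several leading genes lay in those first rows, where the spots around Gpat3 averaged 1.23, those around Tdh 1.18, Uncx 1.13, Il22ra1 1.12, Nkain3 1.04, Sh2d2a 1.03 and Nckipsd 1.004. Around the other leading genes of these rows the values were lower. They were 0.997 for 2610318N02Rik, 0.97 for Cir1 and for Trpm4, 0.94 for Fam53b, 0.89 for Slc37a1 and 0.76 for Klra1. The part of this shift of the dimmest spots in the differences of the 100 genes was not tested.

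**Figure D2:**
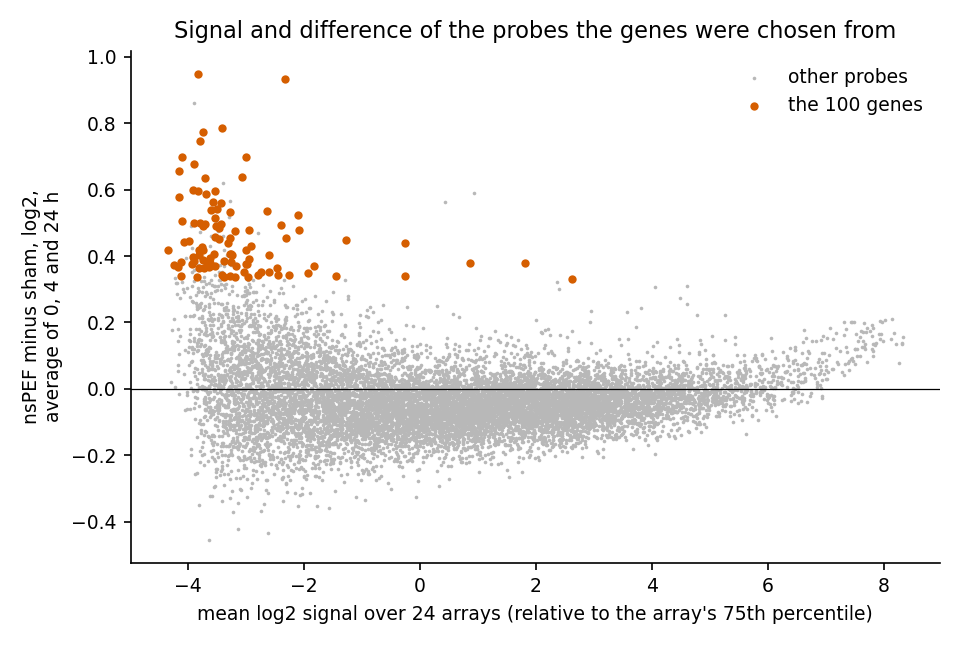
Average nsPEF minus sham difference over 0, 4 and 24 h (vertical axis, log2) against the mean log2 signal over 24 arrays (horizontal axis, after the same subtraction) for the 11375 probes; the 100 genes are orange. Of the 100, 91 lie left of -2; the 41 grey probes higher than the last of the 100 include 0 that were above sham at all 3 times.

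Among the 11 genes of secreted proteins and enzymes, the median average difference was 0.45. Gpat3, which encodes a glycerol-3-phosphate acyltransferase of triglyceride synthesis, had the largest average of all, 0.95 on the log2 scale or 1.93-fold. At 0 h it read -4.82, -5.49, -4.81 and -5.20 on the sham arrays and -3.61, -3.40, -4.91 and -4.19 on the nsPEF arrays. At 24 h it read -4.56, -4.49, -5.04 and -4.29 in sham and -3.71, -1.20, -4.26 and -3.58 in nsPEF. The groups overlapped at 0 h and separated narrowly at 24 h, where replicate 2 of nsPEF stood far above the rest. Without it the 24 h difference was 0.75 and not 1.41.

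Igfbp2, which encodes a binding protein that holds insulin-like growth factors, differed most at 4 h. It then read -4.53, -4.59, -4.52 and -5.76 in sham and -4.00, -3.88, -3.02 and -3.25 in nsPEF. The arrays did not overlap at 4 h or at 24 h, and they did at 0 h. Tdh, which encodes threonine dehydrogenase, averaged 0.56, and Matn4, a matrilin of the extracellular matrix, 0.54. The other genes of this group, with averages between 0.35 and 0.48, were the apolipoprotein Apoc2, the lectin Clec3b, the lens crystallin Crygc, the casein Csn1s2b, the kallikrein Klk4, the acyl-CoA thioesterase Acot3 and ceruloplasmin (Cp). Csn1s2b averaged 0.38, and 0.26 without nsPEF replicate 4 at 24 h.

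The 10 immune and scavenger genes had a median of 0.44. Klra1, which encodes a lectin-like receptor of natural killer cells, averaged 0.93 or 1.91-fold. On the sham arrays it read -2.61, -2.37, -2.98 and -2.57 at 0 h, then -3.61, -3.43, -3.52 and -2.93 at 4 h, and -2.47, -2.34, -2.29 and -2.42 by 24 h. On the nsPEF arrays it read -1.58, -1.52, -2.19 and -1.69 at 0 h, then -2.49, -2.29, -1.91 and -1.77 at 4 h, and -1.90, -2.06, -1.11 and -1.84 by 24 h. Every nsPEF array lay above every sham array of its time. Il22ra1, a subunit of the interleukin 22 receptor, averaged 0.64, but its arrays overlapped at all 3 times. At 0 h its nsPEF arrays read -3.20, -3.22, -4.36 and -0.91, and without replicate 4 at 0 h the average was 0.41. Sh2d2a, a T cell adaptor, averaged 0.54 and overlapped at 0 h. The others were Ager, Cd4, Ifna5, Flt3l, Snx20, Stab2 and Cd300a, between 0.37 and 0.45. Flt3l averaged 0.25 without nsPEF replicate 1 at 4 h, and Cd300a 0.24 without nsPEF replicate 2 at 0 h.

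Of the 10 genes of channels, pumps, transporters and junctions, with a median of 0.51, 5 were among the first 20. Slc37a1, a sugar phosphate exchanger, averaged 0.75. Trpm4, a cation channel opened by intracellular calcium, averaged 0.66 and was higher by 0.40, 1.15 and 0.42 at the 3 times. At 4 h it read -4.44, -4.86, -5.02 and -4.71 in sham and -4.14, -3.15, -3.44 and -3.71 in nsPEF, which did not overlap. Catsper4, a subunit of the sperm calcium channel, averaged 0.64, Nkain3, a partner of the sodium pump, 0.60, and Atp2b2, a calcium pump of the plasma membrane, 0.56. Both the calcium pump and Nkain3 separated at 24 h alone. The remaining genes were Trpm1, Dpp6, Aqp4, Kcnip1 and Cldn14, between 0.37 and 0.45.

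Receptors coupled to G proteins made up 7 of the genes, with a median of 0.45. Olfr821, an olfactory receptor, averaged 0.78. At 4 h it read -4.14, -4.23, -3.93 and -4.25 in sham and -3.44, -3.06, -2.29 and -3.37 in nsPEF. Its 24 h values were -3.51, -3.29, -3.62 and -2.97 in sham and -1.71, -2.12, -2.53 and -2.90 in nsPEF. The arrays were apart at both times, though narrowly at 24 h. The other receptors were Gpr161, Gpr6, the pheromone receptor Vmn2r3 and the olfactory receptors Olfr456, Olfr223 and Olfr978. Gpr161 averaged 0.50, and 0.28 without nsPEF replicate 3 at 0 h.

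Signalling, cytoskeleton and traffic genes numbered 13, with a median of 0.38. Nckipsd, which encodes a partner of the adaptor Nck in actin assembly, averaged 0.77. At 4 h it read -3.53, -3.92, -3.78 and -4.25 in sham and -2.67, -2.68, -2.81 and -2.97 in nsPEF, and the groups were apart then and at 24 h. Bmf, a BH3-only gene that promotes apoptosis, averaged 0.34, but at 4 h its nsPEF arrays read -3.60, -4.05, -1.50 and -3.26 and without replicate 3 at 4 h its average was 0.16. The brighter probe of Bmf was lower in nsPEF, with an average of -0.29. The other genes were the formin Fmnl1, the kinase Mknk2, the talin Tln2, the kinase anchor Akap7, the adaptors Garem2 and Shc4, the ubiquitin ligase Herc2, the syntaxin Stx17, Gtpbp10, Prickle1 and the calpain Capn5. Tln2 averaged 0.48, and 0.21 without nsPEF replicate 4 at 4 h.

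The 12 genes of transcription, chromatin, DNA and splicing had a median of 0.40. Uncx, a homeobox gene, averaged 0.70 and was higher by 0.04, 0.74 and 1.32 at 0, 4 and 24 h. At 24 h it read -3.66, -3.54, -3.41 and -3.72 in sham and -3.29, -0.43, -2.35 and -2.997 in nsPEF, and without replicate 2 of nsPEF the difference was 0.70. Cir1, a corepressor, averaged 0.59. At 4 h it read -4.02, -4.49, -4.68 and -4.40 in sham and -0.66, -4.23, -3.88 and -4.14 in nsPEF, and without nsPEF replicate 1 at 4 h the average was 0.31. The rest were Sox9, Runx3, Hoxa6, Nfatc4, Tox2, Zfp13, Tet3, Ruvbl2, the checkpoint gene Rad1 and the epithelial splicing factor Esrp1. Rad1 averaged 0.34, and 0.17 without nsPEF replicate 4 at 4 h.

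Besides the groups above, 17 genes were grouped by neurons and glia, muscle or germ cells. The 10 genes of neurons and glia, among them Syn1, Nrgn, Chat, Mag, Ermn, Klhl1, Srrm4, St8sia5 and Prrt1, had a median of 0.36, the muscle genes Mybpc3 and Tnnt3 averaged 0.48 and 0.36, and the 5 germ cell genes (Npm2, Msh5, Tex19.2, Lrrc23 and Tbata) had a median of 0.37. At 24 h Mybpc3 read 0.29, -2.63, -2.76 and -3.44 in nsPEF, and without replicate 1 its average was 0.21. Syn1 averaged 0.51, and 0.33 without nsPEF replicate 2 at 0 h or replicate 3 at 4 h, and Srrm4 0.36, and 0.24 without nsPEF replicate 4 at 4 h or replicate 2 at 24 h. Noncoding RNAs were 11 of the 100, against 4.20% of all probes that could have been chosen and 9.78% of the dim ones. Gm32849 averaged 0.60 and Gm35358 0.59, and the others were 2210420H20Rik, B430319F04Rik, 1700120C14Rik, 4930528G23Rik, Mir99ahg, Gm16159, 5430431A17Rik, 1700047M11Rik and Gm6936. Without 1 nsPEF array, replicate 2 at 4 h, replicate 1 at 24 h or replicate 4 at 4 h, the averages of B430319F04Rik, 1700120C14Rik and Mir99ahg were 0.21, 0.29 and 0.24 in place of 0.52, 0.49 and 0.38. The 9 coding genes without a role given here were led by Fam53b at 0.68, D17H6S53E at 0.58 and 2610318N02Rik at 0.54, and held Gm11634, Ankrd33b, Banf2, BC024139, Gm5800 and BC051142, which averaged 0.34, and 0.22 without nsPEF replicate 2 at 4 h. The genes lay on 18 chromosomes, with 14 of 100 on chromosome 7, which holds 7.96% of the genes that could have been chosen.

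At the probes of the list the 3 bright genes were moderately higher. Shc4, an adaptor of receptor tyrosine kinases, averaged 0.38 and at 24 h read 1.93, 1.77, 1.92 and 1.94 in sham and 2.02, 2.10, 2.04 and 2.10 in nsPEF. Herc2, a large ubiquitin ligase, averaged 0.38 and at 24 h read 0.55, 0.73, 0.76 and 1.06 in sham and 1.09, 1.16, 1.23 and 1.26 in nsPEF. Ermn, a cytoskeletal gene of oligodendrocytes, averaged 0.33 and its arrays overlapped at all 3 times. Shc4 and Herc2 separated at 24 h only. The other probes of Herc2 that were well above background on all arrays averaged 0.0173 and 0.0233. The other probe of Shc4 reached this mark on 18 arrays and averaged -0.10.

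**Figure D3:**
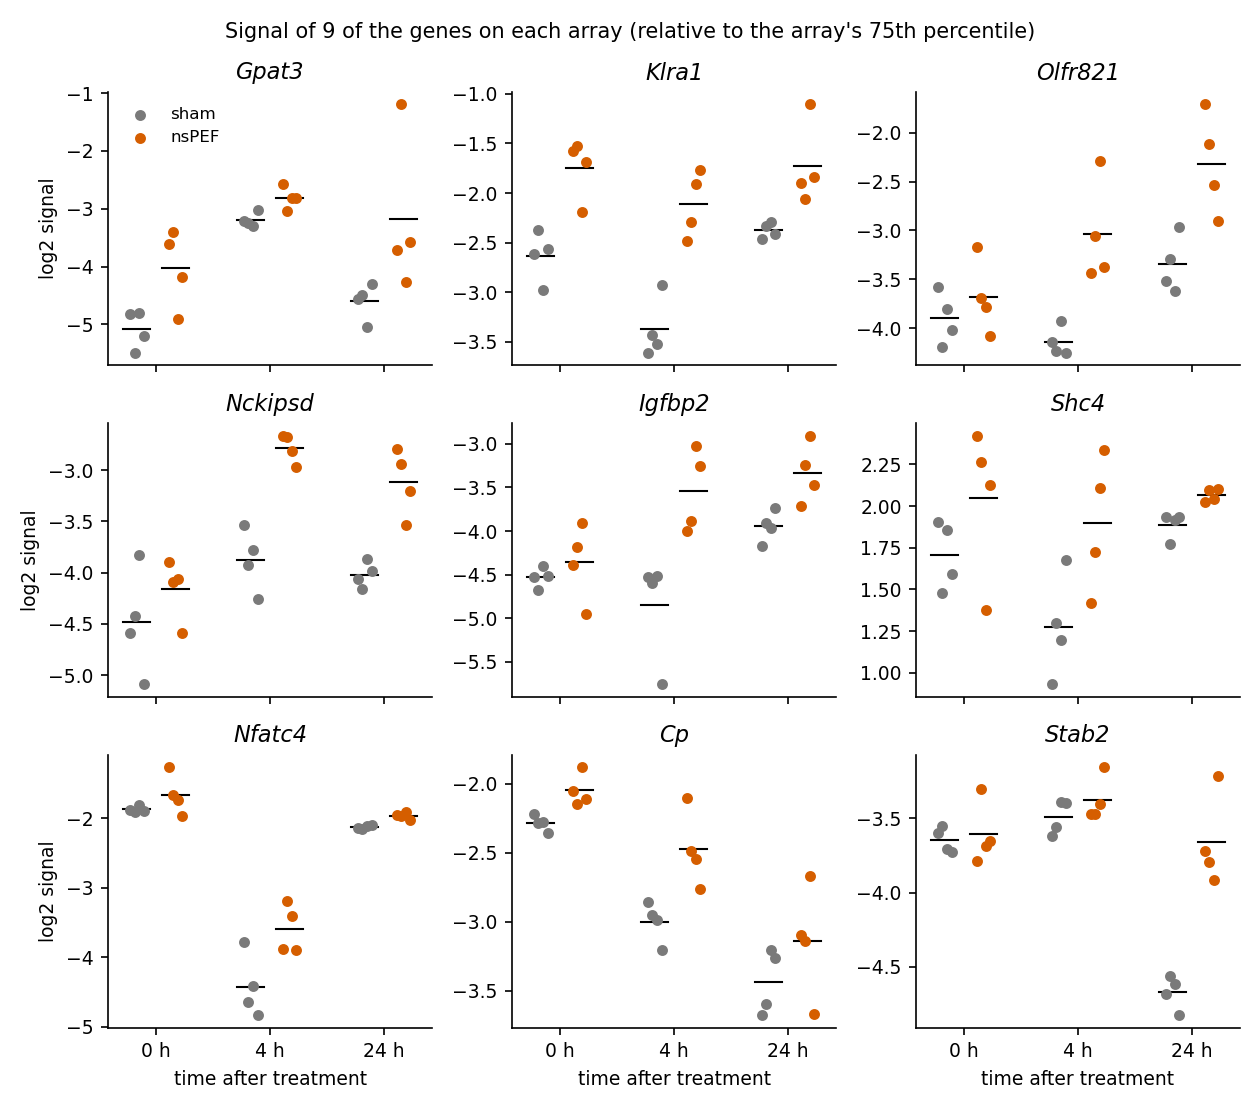
Log2 signal (vertical axis, after subtraction of the array's 75th percentile) of 9 genes at 0, 4 and 24 h, with 1 point for each array, sham in grey, nsPEF in orange and black lines at the group means. Klra1 is apart at all 3 times, while Gpat3 at 4 h, Nfatc4 at 4 h and Cp at 24 h show time changes that both treatments share.

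Other probes of the same genes were read as well. For 56 of the genes the array held 82 other probes, and for 44 it held none. Of the 82, 34 probes of 27 genes were well above background on all 24 arrays, and 16 were so on none. The rule had 16 of the 34 among its candidates and kept the probe with the larger average, while the other 18 lay outside its rows and were not read by it. The nsPEF minus sham average was above 0 for 9 of the 18 and below 0 for 9, with a median of 0.0018 and a range from -0.15 to 0.23, and 0 were above 0 at all 3 times. Of the 16 candidates 8 were above 0 and 8 below, with a median of -0.02 and a range from -0.29 to 0.25, and 3 were above 0 at all 3 times, among them a second probe of Nckipsd with an average of 0.19. These values are a description, with no test. The 34 had a median signal of -0.999, and the probes of the list beside them -3.28.

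The largest contrast between probes was at Gpat3, whose other probe lay outside the rows of the rule. At 0 h its other probe read -1.90, -1.96, -2.15 and -2.07 in sham and -2.05, -2.03, -2.15 and -2.20 in nsPEF. Its 24 h values were -1.72, -2.04, -1.39 and -1.91 in sham and -1.70, -1.79, -1.69 and -1.81 in nsPEF. The groups overlapped at both times, and the average difference was -0.0028 where the probe of the list gave 0.95. The other probe of Mknk2, also outside those rows, averaged 0.0064. Those of Trpm4, Cir1 and Bmf, which were candidates, averaged -0.12, -0.15 and -0.29.

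**Figure D4:**
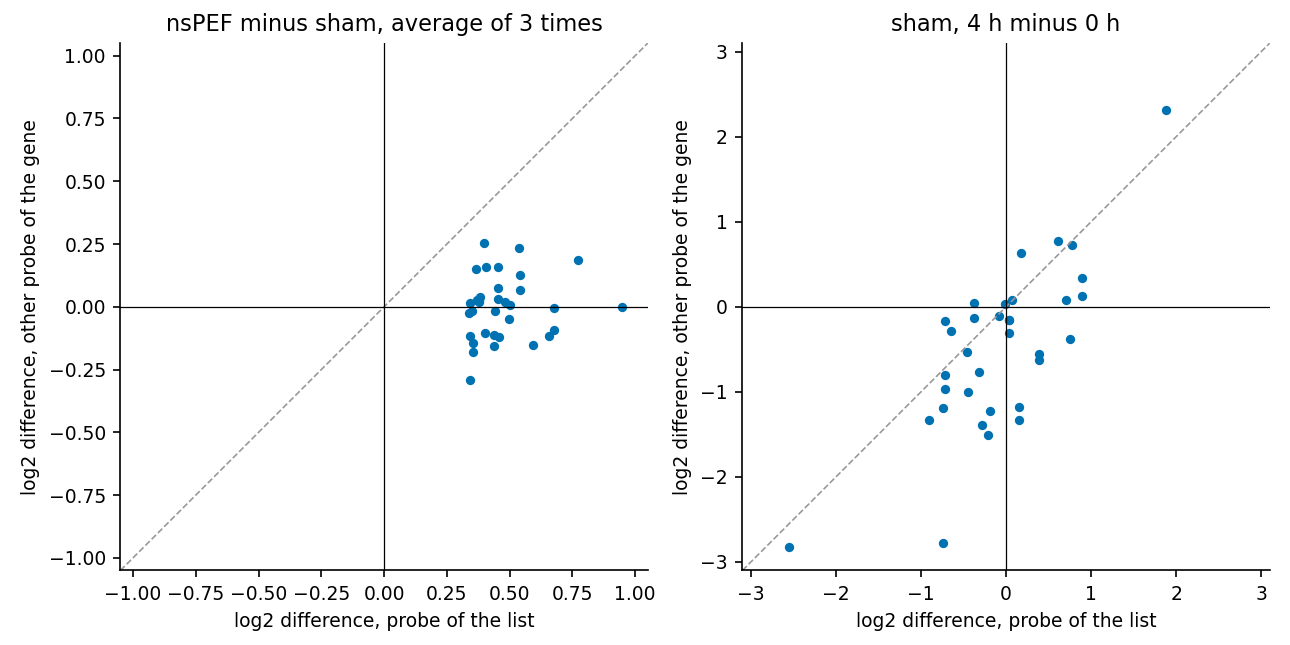
Log2 differences at the 34 other probes well above background on all 24 arrays (vertical axes) against those at the probe of the list for the same gene (horizontal axes), for nsPEF minus sham averaged over 3 times (left) and for 4 h minus 0 h in sham (right); the dashed line marks equal values. On the left the other probes lie on both sides of 0, with 17 above and 17 below, and on the right Gpat3 and Nfatc4 lie near the line at its ends.

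Change over time was tested as well. The rule compared only arrays of the same time point, but the time contrasts use the same arrays, so they are not independent of the choice. With limma and Benjamini-Hochberg adjustment over all 37684 tested probes, 59 of the 100 genes changed with time over both treatments, where 80.3% of all tested probes did. From 0 h to 4 h in sham, 16 rose (29.0% of all tested probes rose) and 12 fell (30.3%). From 0 h to 24 h in sham, 10 rose (18.1%) and 9 fell (18.6%). These shares in sham were below those of the array as a whole. The median change in sham was -0.05 at 4 h and 0.04 at 24 h. The split depended on the scaling: at 4 h, 2 rose and 28 fell with normexp background correction (22% and 35.6% of all tested probes) and 12 rose and 19 fell with the percentile over detected probes (24.6% and 35.9%), and at 24 h, 1 rose and 9 fell with normexp (11.7% and 18.6%). Scaling to the spike-in RNA, which moved the median of all probes that could have been chosen by 0.69 from 0 h to 24 h in sham, gave 74 that rose and 2 that fell at 24 h, where 76.5% and 1.35% of all tested probes did.

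In nsPEF, 30 rose (32.8%) and 6 fell (28.4%) from 0 h to 4 h, and 30 rose (24.1%) and 3 fell (18.3%) from 0 h to 24 h. With normexp these were 10 and 3 at 4 h (25.3% and 21.9% of all tested probes) and 7 and 2 at 24 h (13.7% and 14.7%). With spike-in scaling, which moved the median of all by 0.14 and 0.55, they were 40 and 2 at 4 h (38.0% and 21.9%) and 75 and 1 at 24 h (70.1% and 2.93%). The median change was 0.30 at 4 h and 0.35 at 24 h, against 0.01 and 0.01 for all probes that could have been chosen. The negative control spots averaged -7.08 at 0 h, -6.77 at 4 h and -6.84 at 24 h on the nsPEF arrays and -7.63, -7.74 and -7.62 on the sham arrays, and their part in these rises was not tested. The part of the choice by the rule in these rises was not tested either. Of the genes that changed in sham, 18 of 28 (64.3%) were also called in the same direction in nsPEF at 4 h and 12 of 19 (63.2%) at 24 h. Of all tested probes called in sham, 84.9% and 69.1% were, and of the dim ones that could have been chosen, 85.2% and 67.5%. Whether the change over time differed between the treatments was not tested, as that contrast compares the differences the rule used.

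The largest rises from 0 h to 4 h in sham were those of Gpat3, by 1.89 ± 0.45 (SE), and Garem2, which encodes an adaptor of the Erk pathway, by 1.60 ± 0.17 (limma adjusted p = 0.00109 and 4.57e-08). Gpat3 reached -3.21, -3.25, -3.29 and -3.02 at 4 h in sham. Garem2 read -3.98, -3.86, -3.99 and -3.93 at 0 h and -2.32, -2.36, -2.49 and -2.21 at 4 h in sham, without overlap. Runx3, a transcription factor of T cells and neurons, rose by 0.95, Rad1 by 0.90, Olfr978 by 0.87 and the water channel gene Aqp4 by 0.77. The other probe of Gpat3 rose by 2.31 (limma adjusted p = 3.98e-14), from the values given for 0 h to 0.34, 0.20, 0.23 and 0.40. It stood at 0.35, 0.39, 0.33 and 0.33 in nsPEF, so both treatments shared the rise. With normexp background correction the probes of the list were no longer called for Gpat3 (0.37, limma adjusted p = 0.18), Runx3 (0.10), Rad1 (0.31) and Aqp4 (0.0097), and Rad1 also lost its call without any of 4 single sham arrays.

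The largest fall from 0 h to 4 h in sham was that of Nfatc4, which encodes a transcription factor moved to the nucleus by calcineurin, by 2.55 ± 0.18 on the log2 scale (SE, limma adjusted p = 1.69e-10). It read -1.88, -1.92, -1.80 and -1.89 at 0 h, then -3.79, -4.65, -4.41 and -4.84 at 4 h, and -2.14, -2.16, -2.11 and -2.10 by 24 h. In nsPEF it fell by 1.93 (limma adjusted p = 1.15e-08), and its other probe fell by 2.83 in sham (limma adjusted p = 1.25e-12). In sham that probe read 0.70, 0.73, 0.89 and 0.88 at 0 h, then -1.69, -1.99, -1.77 and -2.65 at 4 h, and 0.64, 0.69, 0.69 and 0.79 by 24 h. On both probes the gene was lowest at 4 h, and from 0 h to 24 h the probe of the list differed by -0.25 (limma adjusted p = 0.30). Next were BC024139, which fell by 1.44, Capn5 by 1.11, the growth factor gene Flt3l by 1.04, BC051142 by 0.89 and Klra1 by 0.74.

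From 0 h to 24 h in sham, Olfr978 rose most, by 1.27 ± 0.15 (SE, limma adjusted p = 1.17e-06), from -1.16, -1.09, -1.15 and -1.15 to 0.02, 0.11, 0.14 and 0.23. Esrp1 rose by 1.06, Csn1s2b by 0.96, Gm11634 by 0.82, the sialyltransferase gene St8sia5 by 0.75 and the interferon gene Ifna5 by 0.67. Csn1s2b rose by 0.63 without replicate 4 of sham at 24 h and was then no longer called (limma adjusted p = 0.14). With normexp the calls of Esrp1 (0.30), Csn1s2b (0.26), Gm11634 (0.15), St8sia5 (0.16) and Ifna5 (0.18) were lost too. Ceruloplasmin (Cp), the copper-carrying ferroxidase, fell by 1.16 ± 0.16 (SE, limma adjusted p = 1.38e-05).

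Cp read -2.22, -2.28, -2.27 and -2.36 at 0 h, then -2.86, -2.95, -2.99 and -3.20 at 4 h, and -3.68, -3.60, -3.21 and -3.27 by 24 h in sham, and the 3 times did not overlap, narrowly so between 4 h and 24 h. It fell in nsPEF as well, by 1.10 at 24 h (limma adjusted p = 2.18e-05). Both of its other probes that were well above background on all arrays fell in sham, by 0.69 and 0.48. Stab2, a scavenger receptor of sinusoidal endothelium, fell by 1.03 in sham, from -3.60, -3.55, -3.70 and -3.73 to -4.69, -4.56, -4.62 and -4.83. In nsPEF it stood at -3.72, -3.79, -3.92 and -3.21 at 24 h, with a change of -0.05 (limma adjusted p = 0.77). Its spot and that of 4930528G23Rik, named next, lay in the patch at the right edge described below. The 61 other dim probes there had a median nsPEF minus sham difference of 0.21 at 24 h. The part of place in these changes was not tested.

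Matn4 fell by 0.92 from 0 h to 24 h in sham, 4930528G23Rik by 0.74, Mknk2 by 0.70 and the transcription factor gene Sox9 by 0.64, although with spike-in scaling the values of Mknk2 and Sox9 were 0.021 and 0.075 and those of Matn4 and 4930528G23Rik, at -0.20 and -0.03, were not called by limma. The other probe of Sox9 fell by 2.81 (limma adjusted p = 1.08e-08), while that of Mknk2 stood at 0.07 (limma adjusted p = 0.21). Over all genes called in sham at 4 h, 13 other probes well above background on all arrays could be read, of which 8 changed the same way, 0 the opposite way and 5 were not called by limma. At 24 h there were 6, of which 3 changed the same way, 0 the opposite way and 3 were not called. Of all 34 such probes, 23 (67.6%) were called at 4 h and 19 (55.9%) at 24 h in either direction.

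In the lists of 37 pathways and gene families, 3 of the genes occurred, Igfbp2 under growth factors and receptor kinases, Trpm4 under ion channels and Bmf under apoptosis regulators. Read by the brightest probe of each gene, 9 of 45 measured growth factor and receptor genes were above sham at all 3 times, 13 of 44 ion channel genes and 1 of 21 apoptosis genes, where 13.8% of all 16842 genes tested were. From 0 h to 4 h in sham, 20 of the 45 growth factor and receptor genes rose and 18 fell, 15 of the 44 channel genes rose and 13 fell, and 8 of the 21 apoptosis genes rose and 9 fell, where 30.5% of all genes tested rose and 35.2% fell. At the probes of the list none of these 3 genes was called in sham, where from 0 h to 4 h Igfbp2 stood at -0.32 (limma adjusted p = 0.33), Trpm4 at -0.45 (limma adjusted p = 0.10) and Bmf at -0.75 (limma adjusted p = 0.07). At 4 h the brighter probe of Trpm4 fell by 1.00 (limma adjusted p = 4.43e-10) and that of Bmf fell by 2.78 (limma adjusted p = 4.80e-14). At 24 h the former fell by 0.38 (limma adjusted p = 0.000512) and the latter fell by 0.46 (limma adjusted p = 0.00458). The lists of annexins and membrane repair, the integrated stress response, heat shock, Nrf2 and steroid synthesis held 0 of the 100 genes. Each had only 12 to 22 measured genes, and the 100 were chosen among many more, so nothing is read from this.

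The spots of the genes were not spread evenly over the array. In the first 48 of the allowed rows lay 41 of 100, against 20.5% of all probes that could have been chosen and 21.3% of the dim ones. In the last rows, 10 spots in the middle columns all had their largest difference at 4 h, with a median of 0.72 then and 0.27 at 24 h, and 8 spots at the right edge all had theirs at 24 h, with a median of 0.81 then and 0.16 at 4 h. Both patches were picked out after their values were seen. The 82 other dim probes in the first patch had a median of -0.03 at 4 h and -0.05 at 24 h, and the 61 in the second 0.03 and 0.21. The part of place in the differences was not tested.

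**Figure D5:**
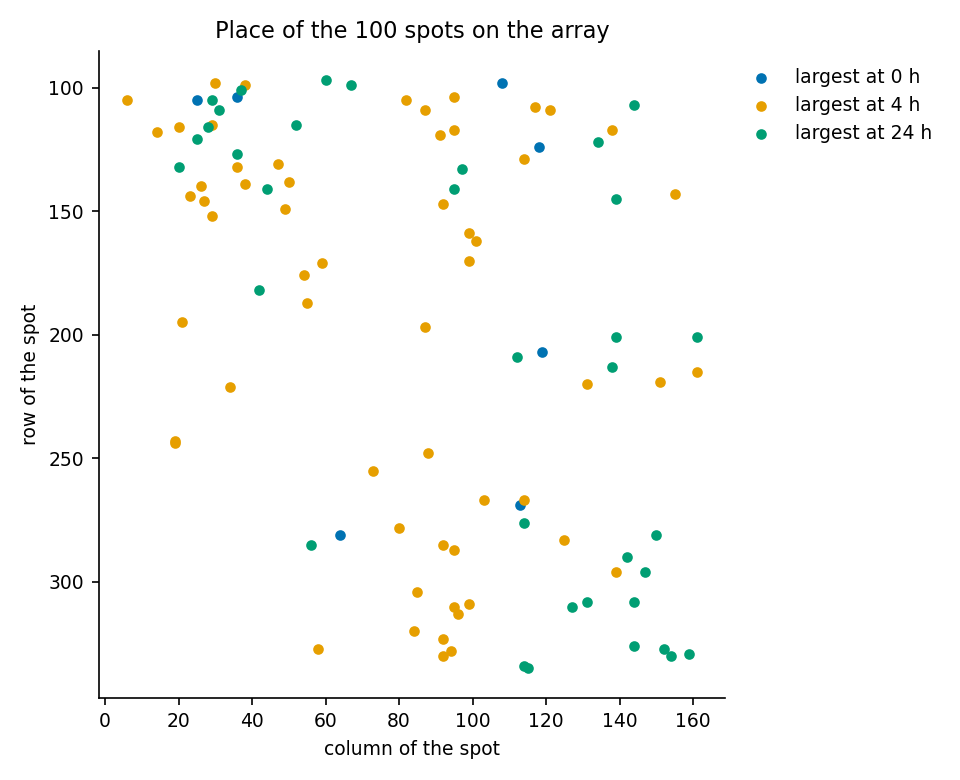
Row (vertical axis) and column (horizontal axis) of the spots of the 100 genes on the array, coloured by the time point with the largest nsPEF minus sham difference. Of the 100 spots 41 lie in the first 48 of the allowed rows; in the last rows a group of orange spots (4 h) stands in the middle columns and a group of green spots (24 h) at the right edge.

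The list has no natural end. Its last 5 genes, Capn5, the myelin gene Mag, Runx3, the calmodulin binder Nrgn and Ermn, averaged between 0.33 and 0.34, and the next 5 genes, Slc34a1, Gm34735, Acr, Stac3 and Sorcs1, averaged 0.33 as well.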

How the data were processed

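RNA of TM3 cells was measured on 24 one-colour Agilent arrays, 4 biological replicates in each of 6 groups. Per the file headers and the study's methods, the authors labelled RNA with Cy3, added spike-in RNA and read the scans with Agilent Feature Extraction 12.0, whose deposited processed signal intensity is background-subtracted and detrended but not scaled between arrays. The deposited log2 values of the whole series, which the authors shifted to the 75th percentile and centred on the median of each probe, were an alternative.

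Here the log2 processed intensity minus the 75th percentile of each array over its 59305 spots other than controls was used, from 300.3 to 787 intensity units. Probe accessions were paired with RefSeq symbols (GRCm38.p6 tables, used for names only), which named 34566 of 56605 probes (61.1%). Probes well above background on at least 2 of 4 arrays of any group (37684) were fitted with limma 3.58.1 in R 4.3.3 with a mean for each group, with Benjamini-Hochberg adjustment over all of them and a threshold of 0.05. On simulated data, 149 of 200 probes changed by 1 on the log2 scale between sham at 4 h and 0 h were recovered with 11 false calls among 35691 probes. In the data 59.3% of all tested probes were called in this contrast. The 100 genes also had a larger median SD between replicates than all probes that could have been chosen. The simulated recovery is therefore not a rate for these genes. The number of arrays limits the precision.

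The genes and the gene lists were chosen with earlier results of these data known. The text names the 20 genes with the largest average difference, the 6 largest called rises and falls in sham at each time, those in the gene lists, and the last 5 and next 5, and gives the others once by their role, except 1 gene that is not reported here by name. Roles, patches of the array and genes shown for their brightness or their other probes were set after values were seen. Other probes of a gene were read where they were well above background on all arrays, and for Shc4 on 18 arrays. Alternatives were quantile, spike-in, detected-probe and row-block scaling, normexp with an offset of 50, the deposited log2 values, other probe and row choices, other filters, a plain two-way analysis of variance, the replicate number as a block, and each array or replicate left out. The study ran the tests of a biological replicate on a shared cell suspension, but the labels do not say that a number marks it, and not every same-numbered pair deviated together, so whether the numbers pair the arrays was not settled and the block was kept as an alternative. The processing tools were taken from the submitters' notes.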

Additional observations from a re-analysis of the deposited data

Results flagged for a closer look

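In 6 of 120 groups of 4 arrays, over the 20 genes with the largest average difference, 1 array stood far from the other 3, with a gap that was a large share of the range of the group. Chance marks about 1 in 20 such groups. In sham at 4 h, replicate 4 was lowest for Igfbp2 (gap 0.938 of the range) and Atp2b2 (0.867), and in sham at 24 h replicate 4 was highest for Catsper4 (0.97). In nsPEF at 4 h, replicate 3 was highest for Nkain3 (0.964), replicate 1 highest for Cir1 (0.904) and replicate 2 lowest for Gm32849 (0.837). Without these single arrays the average nsPEF minus sham difference was 0.60 for Igfbp2, 0.46 for Atp2b2, 0.67 for Catsper4, 0.47 for Nkain3, 0.31 for Cir1 and 0.65 for Gm32849, on the log2 scale. The mean of the 100 genes had no such array in any of the 6 groups.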

How the results depend on the processing

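Of the 100 genes, 59 were chosen again with quantile normalization, 36 when all rows of the array were allowed, and 66 to 95 when a replicate number or a single array was left out. The median average difference of the 100 was 0.26 with quantile normalization and 0.26 with normexp, against 0.42, and lay between 0.26 and 0.53 under every scaling tried. Not all of the 100 stayed above sham at all 3 times. With quantile normalization 64 did, with normexp 92, with spike-in scaling 100, and without nsPEF replicate 2 at 0 h 78. With spike-in scaling the genes called by limma numbered 92 for time over both treatments, 76 for sham at 24 h and 76 for nsPEF at 24 h. Of all 37684 tested probes, 29343 were called for sham at 24 h and 27508 for nsPEF at 24 h with this scaling. With normexp the called genes numbered 34 for time, 10 for sham at 24 h, 13 for nsPEF at 4 h and 9 for nsPEF at 24 h. Of all 37684 tested probes, 11422 were called for sham at 24 h, 17770 for nsPEF at 4 h and 10710 for nsPEF at 24 h. With arrays left out the counts of the 100 genes lay between 51 and 61 for time. They lay between 22 and 32 for sham at 4 h and between 14 and 23 for sham at 24 h. For nsPEF they lay between 23 and 36 at 4 h and between 20 and 36 at 24 h. The lowest of both nsPEF counts came without replicate 3 of all groups. The cause of these shifts was not tested. With the replicate number as a block the counts were 59 for time, 28 and 19 for sham and 36 and 34 for nsPEF, so the block changed no count by over 1.5 times. With the block, 22451 and 14083 of all 37684 tested probes were called in sham and 23242 and 16294 in nsPEF. For time under these settings, and with arrays left out, no number over all probes is given, so nothing is read from the size of those counts. Same-numbered arrays correlated above 0.1 in 18 of 60 pairs and in 7 of the 12 sham and nsPEF pairs of the same time, where the correlations ran from -0.16 to 0.29, and 10 of 24 arrays correlated best with their own number among the arrays of the other treatment at that time. With the brightest probe of each gene, the average was -0.29 for Bmf, -0.15 for Cir1 and -0.12 for Trpm4. With spike-in scaling the sham change at 24 h was 0.021 for Mknk2 and 0.075 for Sox9. Leaving out nsPEF replicate 3 at 4 h moved Bmf to 0.16, nsPEF replicate 1 at 4 h moved Cir1 to 0.31, and nsPEF replicate 4 at 0 h moved Il22ra1 to 0.41. Rad1 at 4 h and Csn1s2b and Mknk2 at 24 h lost their calls in sham without some single arrays. The dim spots, at a median of -3.45, limit what 4 arrays a group can resolve.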
